A study of Mus musculus with 7 samples.

Results

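The 33 genes described here are those of microglia and macrophages, the resident immune cells of brain tissue and its borders, and were read in mouse whole neocortex. They were taken by name: Aif1, C1qa, C1qb, C1qc, Csf1r, Cx3cr1, Trem2, Tyrobp, P2ry12, P2ry13, Fcrls, Ctss, Laptm5, Cd68, Cd14, Cd53, Cd84, Itgam, Itgb2, Itgb5, Ptprc, Spi1, Irf8, Fcer1g, Fcgr3, Tmem119, Gpr34, Siglech, Mrc1, Cd163, Lyz2, Ly86 and Selplg. All 33 had 1 probe set each with that symbol alone, among 19936 genes with a symbol of their own on the array. Of these, 28 had a mean log2 signal over the 7 arrays at or above 6.84, the 25th percentile of all probe sets, and were tested among 16144 genes. The other 5, Mrc1, Ptprc, Cd163, Gpr34 and Cd84, were below it and are called dim.

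RNA of whole neocortex from C57BL/6 mice was hybridised to 1 Affymetrix array per sample, 4 of the genotype labelled COUP-TFI_Nex-Cre (CKO) and 3 wild type (WT). COUP-TFI is the product of Nr2f1, a nuclear receptor gene that sets the identity of cortical areas. Nex-Cre is active in cortical excitatory neurons after their last division and not in microglia, so the deletion is not aimed at the cells described here. The labels give neither the alleles in full, nor the age and sex of the mice, nor whether the 7 samples are 7 animals, so the p-values reflect only the spread among these samples, part of which may be technical. Values are RMA log2 signals, so a difference of 1 is a factor of 2 in signal, and differences are CKO minus WT.

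As a check of the labels, Nr2f1 was at 10.60 to 10.79 in CKO and 10.88 to 11.16 in WT (difference -0.36, SE 0.074, adjusted p 0.435 with limma). Its groups did not overlap, where 2.99% of all genes were lower in CKO without overlap. Whether the Nr2f1 probe set lies in the deleted part is not known here. Tbr1, a transcription factor of neocortical neurons, was at 12.74 to 12.83 in CKO and 12.50 to 12.72 in WT. WT 38 stood apart from the other 6 arrays in the average of red blood cell genes, which was -0.42 there relative to the mean of the 7 arrays. The list did not shift evenly. On WT 38 the globin genes Hbb-y and Hba-x were at 8.30 and 8.82, against 9.77 to 10.97 and 9.23 to 9.71 on the other arrays. Slc4a1 was at 8.43, against 8.44 to 8.69.

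Microglia come from yolk sac precursors that enter the embryonic brain and depend there on signalling through the receptor encoded by Csf1r and on the transcription factors encoded by Spi1 (PU.1) and Irf8. In developing cortex they engulf dying cells and synapses, in part through complement C1q, and they survey the tissue with receptors for nucleotides and for the neuronal chemokine CX3CL1. Aif1 encodes IBA1, an actin-bundling protein of microglia and macrophages that is widely used to stain them. The comparison asks whether the lower Aif1 signal in CKO was shared by the other genes of the same cells.

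Promoter sequences are given for 3 members on which the values below turn: Aif1, which had the largest difference, Laptm5, which went most closely with the other members across arrays, and Itgam, the 1 member tested whose groups did not overlap. They are the 250 bases before the RefSeq start (GRCm38.p6), 5′ to 3′ on the gene's strand, and capitals mark matches to GAGGAAG, a purine-rich box of the kind that PU.1 binds, on either strand.
Aif1, chr17:35176053-35176302, minus strand: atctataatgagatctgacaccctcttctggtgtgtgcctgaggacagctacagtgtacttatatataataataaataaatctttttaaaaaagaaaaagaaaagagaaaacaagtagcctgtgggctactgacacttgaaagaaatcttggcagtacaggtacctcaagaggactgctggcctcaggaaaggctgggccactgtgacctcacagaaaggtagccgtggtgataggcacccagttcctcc
Laptm5, chr4:130913066-130913315, plus strand: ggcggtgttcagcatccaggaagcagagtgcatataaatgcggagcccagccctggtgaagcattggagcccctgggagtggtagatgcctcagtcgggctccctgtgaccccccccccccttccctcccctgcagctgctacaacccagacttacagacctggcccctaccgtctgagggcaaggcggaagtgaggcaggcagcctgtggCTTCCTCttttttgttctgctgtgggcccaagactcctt
Itgam, chr7:128062390-128062639, plus strand: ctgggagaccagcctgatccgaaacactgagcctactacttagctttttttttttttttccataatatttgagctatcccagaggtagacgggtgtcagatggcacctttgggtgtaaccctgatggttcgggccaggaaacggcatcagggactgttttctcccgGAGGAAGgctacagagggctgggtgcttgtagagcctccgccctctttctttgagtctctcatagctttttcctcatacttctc
The box was in such a window of 8 of the 24 members with an entry in the set of RefSeq promoters used here (33.3%): C1qc, P2ry13, Trem2, Fcgr3, Fcrls, Itgam, Laptm5 and Mrc1. Of all 27025 genes with an entry, 12% held it. The letters were not in the Aif1 window. A match describes the letters only and shows no binding.

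Aif1 (probe set 10450484) was at 7.55 on CKO 1, 7.03 on CKO 4, 7.30 on CKO 34 and 7.28 on CKO 43, against 7.75 on WT 6, 7.65 on WT 27 and 7.55 on WT 38. CKO 4 was the lowest array, and the other 2 CKO arrays below every WT array were CKO 34 and CKO 43, while CKO 1 and WT 38 had nearly the same signal, so the groups overlapped by that 1 pair. The CKO mean was 7.29 ± 0.214 (SD, n = 4) and the WT mean 7.65 ± 0.0999 (SD, n = 3), a difference of -0.36 (SE 0.110, 95% interval -0.61 to -0.11). CKO thus had 0.780 of the WT signal. With limma the unadjusted p was 0.0109 and the p adjusted over all genes 0.711, so the difference did not pass. Of the 16144 genes, 234 (1.45%) had an unadjusted p at least as small and 59 a difference at least as negative. The difference was -0.27 without CKO 4, -0.45 without CKO 1, -0.41 without WT 38, and -0.31 without WT 6, where the unadjusted p was 0.0509 with limma. In bulk tissue, fewer cells of a type and less RNA per cell cannot be told apart.

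**Figure D1:**
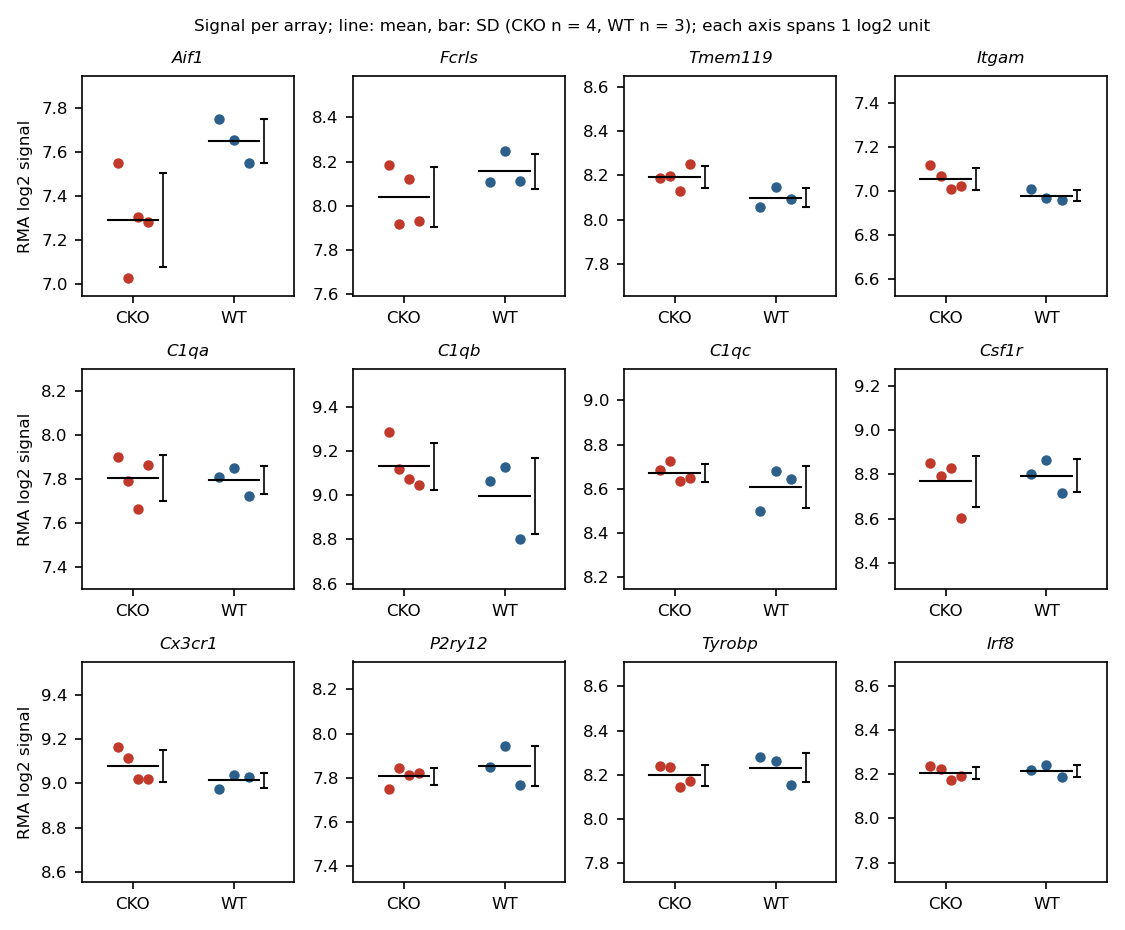
RMA log2 signal on each array for 12 members, with CKO arrays in red and WT arrays in blue; lines are group means, bars are SDs (n = 4 and n = 3) and each axis spans 1 log2 unit. The groups stand apart most for Aif1, at means of 7.29 and 7.65, and lie close together for Irf8, at 8.21 and 8.22.

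None of the 28 members passed an adjusted p of 0.05 with limma, where 0.0248% of all genes did (4 of 16144). The smallest adjusted p was 0.711, that of Aif1. At an unadjusted p under 0.05 there was 1 member, Aif1, or 3.57% of the 28, against 6.79% of all genes (2.61% lower in CKO); the count became 0 without WT 6. Of the 28 members, 13 lay below WT and 15 above, and 41.1% of all genes tested lay below (58.9% above). Without WT 27 the members below WT numbered 5. Their median difference was 0.0024, that of all genes 0.014. Apart from Aif1 the differences ran from -0.12 for Fcrls to 0.13 for C1qb, with a median size of 0.042 against 0.047 for all genes. The groups did not overlap for 1 member, Itgam, with CKO higher, where 5.39% of genes were higher without overlap, and for 0 members with CKO lower (2.99% of genes). The higher count was 3 without CKO 34 or WT 27 and 2 without CKO 43 or WT 6, and the lower count was 3 without WT 38 and 1 without CKO 1 or WT 6.

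The intervals of the other members show how large a difference the arrays leave room for. All 27 other members tested had a 95% interval (not adjusted for their number) that lay above the Aif1 difference of -0.36, as did those of 96.9% of all genes. The lowest bound among the 27 was -0.31, for Cd53 and Fcgr3. The Aif1 difference has an error of its own, and 12 of the 27 had an interval wholly above its upper bound of -0.11: C1qb, C1qc, Cx3cr1, P2ry13, Tmem119, Itgam, Itgb2, Itgb5, Selplg, Cd68, Spi1 and Irf8. Of all genes, 49.5% did. For the other 15 members the intervals overlapped that of Aif1. Among the 12, Itgam and Itgb2 lay near the filter at 6.84, at mean signals of 7.02 and 7.18. How large a fall such low signals could show was not tested.

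**Figure D2:**
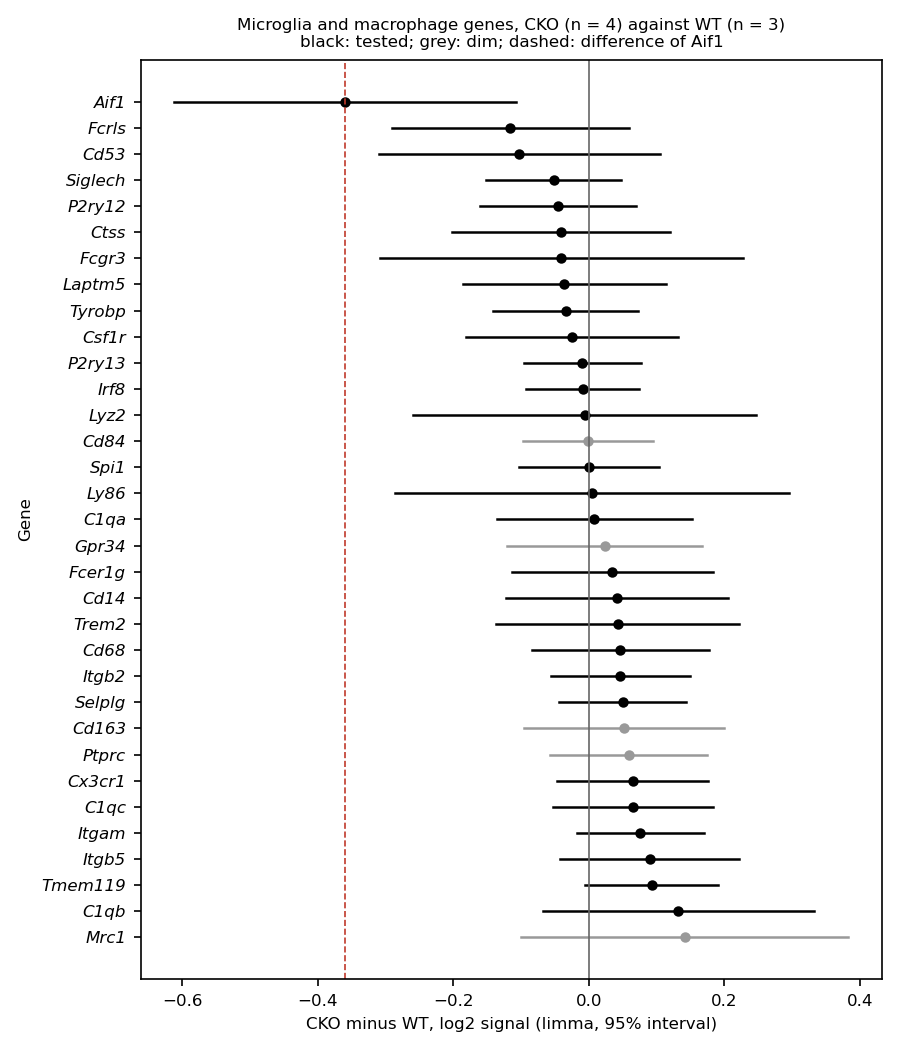
Difference between CKO (n = 4) and WT (n = 3) in log2 signal for the 33 members, with limma's 95% intervals; black marks the 28 tested, grey the 5 dim ones, and the dashed line the Aif1 difference. Aif1 stands at -0.36 and the other 27 tested members lie between -0.12 and 0.13.

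The 3 chains of C1q, the recognition molecule of the classical complement pathway, all lay slightly above WT. C1qb was at 9.28, 9.12, 9.07 and 9.05 on CKO 1, 4, 34 and 43 and at 9.06, 9.13 and 8.80 on WT 6, 27 and 38, a difference of 0.13 (SE 0.087). The low WT array was WT 38, and the other 2 WT arrays lay among the CKO arrays; the difference was 0.035 without WT 38 and 0.081 without CKO 1. C1qc was at 8.68, 8.73, 8.64 and 8.65 in CKO and 8.50, 8.68 and 8.64 in WT in the same order, a difference of 0.066 (SE 0.052), with WT 6 the array below the rest and a difference of 0.012 without it. C1qa was at 7.90, 7.79, 7.66 and 7.86 in CKO and 7.81, 7.85 and 7.72 in WT, a difference of 0.0082 (SE 0.063), with both groups over the same range. Adjusted p-values of the 3 genes with limma ran from 0.752 for C1qb to 0.981 for C1qa.

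Receptors by which microglia sense growth factor, chemokine and nucleotides differed little. Csf1r, the receptor for CSF1 and IL-34 that microglia need to survive, was at 8.85, 8.79, 8.83 and 8.60 on CKO 1, 4, 34 and 43 and at 8.80, 8.86 and 8.71 on WT 6, 27 and 38. CKO 43 was its lowest array and the other 6 lay within one range; the difference was -0.025 (SE 0.068). Cx3cr1, the receptor of CX3CL1, was at 9.17, 9.11, 9.02 and 9.02 in CKO and 8.98, 9.04 and 9.03 in WT, a difference of 0.065 (SE 0.049). CKO 1 and CKO 4 were above every WT array and the other 2 CKO arrays were not. P2ry12, the ADP receptor that guides microglial processes to injury, was at 7.75, 7.84, 7.81 and 7.82 in CKO and 7.85, 7.94 and 7.76 in WT, a difference of -0.046 (SE 0.050), with CKO 1 the lowest array and WT 27 the highest. P2ry13, a related ADP receptor, spanned 8.44 to 8.50 in both groups (difference -0.0094, SE 0.037). Gpr34, a receptor for lysophosphatidylserine, was dim, at 5.43 to 5.59 in CKO and 5.43 to 5.62 in WT.

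Tmem119 and Fcrls, surface proteins that set microglia apart from other macrophages, went in opposite directions. Tmem119 was at 8.19, 8.20, 8.13 and 8.25 in CKO and 8.06, 8.15 and 8.09 in WT, a difference of 0.093 (SE 0.043, adjusted p 0.726 with limma), and only CKO 34 lay under the highest WT array. Fcrls was at 8.19, 7.92, 8.12 and 7.93 in CKO and 8.11, 8.25 and 8.11 in WT, a difference of -0.12 (SE 0.076, adjusted p 0.752 with limma). CKO 4 and CKO 43 were its 2 low arrays, and CKO 1 and CKO 34 lay among the WT arrays.

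Genes of immunoreceptor signalling lay on both sides of WT. Tyrobp encodes DAP12, an adaptor with an activation motif in its tail that passes on signals of receptors such as TREM2, and differed by -0.034 (SE 0.047), at 8.14 to 8.24 in CKO and 8.16 to 8.28 in WT. Fcer1g, the adaptor of Fc receptors, differed by 0.035 (SE 0.065). Trem2, a lipid-sensing receptor of phagocytes, differed by 0.042 (SE 0.078), with the range of 8.55 to 8.78 in CKO nearly the same as that of WT, 8.54 to 8.78. Fcgr3, an Fc receptor for IgG, differed by -0.041 (SE 0.117) and ranged widely in CKO, from 7.35 on CKO 4 to 7.86 on CKO 34. Fcgr3 belongs to a family of near copies, and how far its probes tell them apart was not tested. Siglech, a sialic acid receptor that signals through DAP12, differed by -0.052 (SE 0.044). Each of these 5 genes had overlapping groups.

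Integrins and other leukocyte surface proteins included the 1 member without overlap. Itgam, the alpha chain of complement receptor CR3 (CD11b), was at 7.12, 7.07, 7.01 and 7.02 on CKO 1, 4, 34 and 43 and at 7.01, 6.97 and 6.96 on WT 6, 27 and 38. The lowest CKO array exceeded the highest WT array by only 0.0017, and the difference was 0.076 (SE 0.041, adjusted p 0.739 with limma). Itgam had the lowest mean signal of the 28 members tested, 7.02, near the filter at 6.84. Its partner Itgb2 differed by 0.047 (SE 0.045). Itgb5, an integrin chain that other cortical cells also make, was at 9.17, 9.06, 9.15 and 8.97 in CKO and 9.02, 9.04 and 8.93 in WT, a difference of 0.090 (SE 0.057), with CKO 43 among the WT arrays and the other 3 CKO arrays above them. Selplg, the ligand of P-selectin, differed by 0.050 (SE 0.041). Cd53, a tetraspanin of leukocytes, differed by -0.10 (SE 0.091), through WT 27 at 7.79 against 7.45 on WT 6 and 7.42 on WT 38; without WT 27 the difference was 0.018.

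Lysosomal genes, Toll-like receptor partners and the lineage transcription factors were near 0. The cathepsin gene Ctss differed by -0.041 (SE 0.070), the lysosomal membrane protein gene Laptm5 by -0.036 (SE 0.065) and the phagocyte lysosome marker gene Cd68 by 0.046 (SE 0.057). Lyz2, the lysozyme gene of myeloid cells, which has a close copy in Lyz1, differed by -0.0059 (SE 0.110) and spanned 6.86 to 7.40 in CKO against 7.13 to 7.21 in WT. Cd14, the lipopolysaccharide co-receptor, differed by 0.041 (SE 0.072). Ly86 (MD-1), which partners the Toll-like receptor homologue RP105, differed by 0.0042 (SE 0.127) and was between 8.78 on CKO 43 and 9.34 on CKO 4 in CKO. Spi1 and Irf8 differed by 0.00054 (SE 0.045) and -0.0089 (SE 0.036), with each WT group spanning the CKO mean.

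The 5 dim members were fitted without the filter on low signal, over 19936 genes. Mrc1, the mannose receptor of border macrophages, was at 7.14, 6.86, 6.80 and 6.80 in CKO and 6.55, 6.89 and 6.83 in WT, a difference of 0.14 (SE 0.106), with CKO 1 the highest array and WT 6 the lowest; it was 0.062 without CKO 1 and 0.038 without WT 6. Cd163, the haemoglobin scavenger receptor of the same cells, differed by 0.052 (SE 0.065), the phosphatase gene Ptprc (CD45) by 0.059 (SE 0.051), Gpr34 by 0.024 (SE 0.063) and Cd84, a receptor of the SLAM family, by -0.0016 (SE 0.042). The smallest adjusted p among these 5 was 0.774 with limma. Each of the 5 had a 95% interval above the Aif1 difference.

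Across arrays the members other than Aif1 varied together by a small amount, and their averages did not separate CKO from WT arrays. Relative to the mean of the 7 arrays, the 27 members averaged 0.052 on CKO 1, 0.028 on CKO 4, -0.014 on CKO 34 and -0.049 on CKO 43, and -0.013 on WT 6, 0.054 on WT 27 and -0.059 on WT 38. The highest and the lowest array were both WT; the groups overlapped, with a CKO mean of 0.0044 ± 0.044 (SD, n = 4) and a WT mean of -0.0059 ± 0.057 (SD, n = 3). Of the 27 members, 22 lay above their 7-array mean on CKO 1 and on CKO 4, 9 on CKO 34, 7 on CKO 43, 12 on WT 6, 21 on WT 27 and 5 on WT 38. All genes leaned the same way on each array, with 72.4% above their mean on CKO 1, 66.7% on CKO 4, 33.2% on CKO 34, 40.4% on CKO 43, 44.6% on WT 6, 55.2% on WT 27 and 40.1% on WT 38. On CKO 34 and WT 6 the share of members was the same as that of all genes to within 1 gene.

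**Figure D3:**
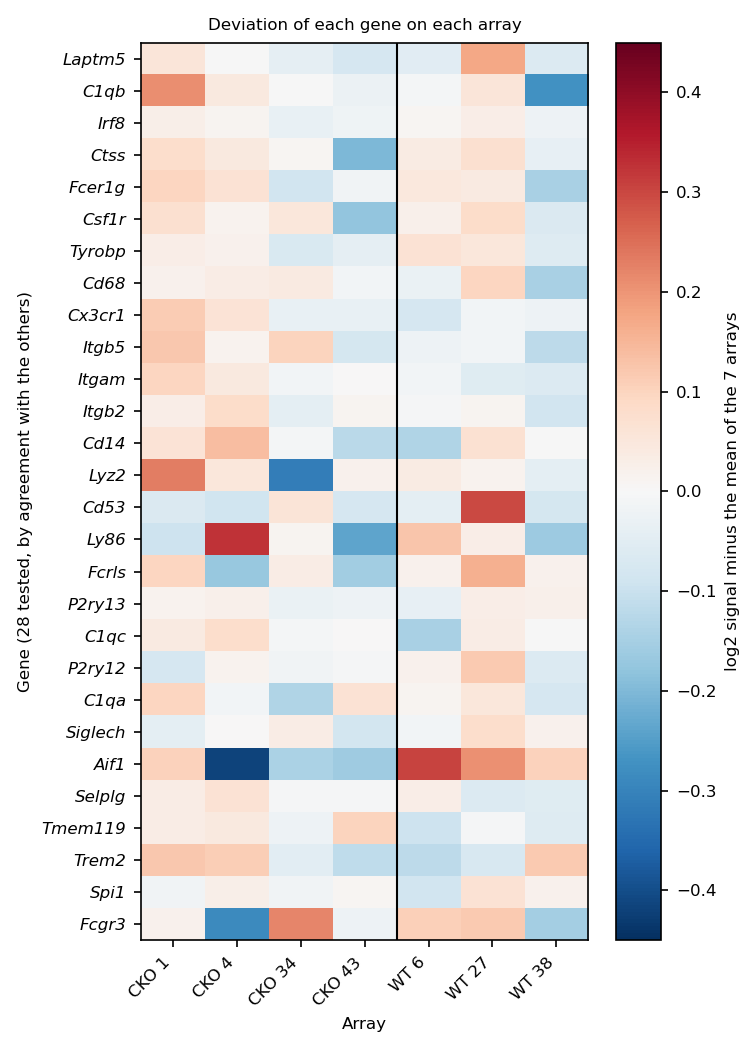
Deviation of the 28 tested members from their mean over the 7 arrays, on a log2 scale, with CKO arrays left of the line and WT arrays right; genes are ordered by median correlation with the other members. Most genes are red on CKO 1 and WT 27 and blue on WT 38. Aif1, like some other members, departs from that order, with its lowest value on CKO 4.

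Aif1 did not follow that order. Relative to its own mean it was 0.10 on CKO 1, -0.42 on CKO 4, -0.14 on CKO 34 and -0.16 on CKO 43, and 0.30 on WT 6, 0.21 on WT 27 and 0.10 on WT 38. On CKO 4, where 22 of the 27 other members lay above their mean, Aif1 was at its lowest, and on WT 38, where 5 did, it was above its mean. Of the 27, 3 were also lowest on CKO 4, among them Fcrls and Fcgr3. Aif1 minus the mean of the other 27 was 0.053 on CKO 1, -0.45 on CKO 4, -0.13 on CKO 34 and -0.11 on CKO 43, and 0.32, 0.15 and 0.16 on WT 6, 27 and 38. Set against the other members, the difference was -0.37, about as large as that of Aif1 itself. It was -0.27 without CKO 4 and -0.44 without CKO 1. The groups of Aif1 did not overlap on this scale, but the share of all genes that would separate likewise was not computed. CKO 1 and WT 38, nearly equal in Aif1 signal, came apart here because the other members averaged 0.052 and -0.059 on them.

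Agreement between pairs of members is described by Pearson correlations over the 7 arrays after group means were subtracted; the pairs share arrays, so no p is given. The median over the 378 pairs was 0.32, against 0.09 over pairs of all genes tested, and 77.0% of pairs were above 0, against 55.6%. It was 0.43 without WT 6. Laptm5 had the highest median with the other 27, at 0.55, followed by C1qb at 0.54, Irf8 at 0.49, Ctss at 0.48, and Fcer1g and Csf1r at 0.46 each. Aif1 had a median of 0.15 and was positive with 16 of the 27, with the highest values for Fcrls (0.70), Fcgr3 (0.66) and C1qb (0.57) and the lowest for Spi1 (-0.47), Ly86 (-0.43) and C1qc (-0.42). Other members had lower medians than Aif1: Selplg (0.125), Tmem119 (0.120), Trem2 (0.097), Spi1 (0.075) and Fcgr3, the lowest, at -0.085. With 7 arrays such values are imprecise.

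Arrays with closely similar identifiers were compared alone, since CKO 34, CKO 43, WT 27 and WT 38 share a run of digits in the labels; whether that marks a batch is not stated there. CKO 1 and CKO 4 share another run, which no WT array has, so for them identifier and genotype cannot be told apart. WT 6 differs from the first 4 arrays in some digits and shares others with them. As a group of its own (3 identifier groups), its identifier and genotype cannot be told apart either. In the other grouping (2 identifier groups) WT 6 was joined to the 4 arrays. Within these 4 arrays Aif1 differed by -0.31 (SE 0.056, adjusted p 0.999 with limma), at 7.30 and 7.28 in CKO against 7.65 and 7.55 in WT, without overlap. Of the 28 members 19 lay below WT, with a median of -0.042, against 53.6% and a median of -0.0056 for all genes. The 2 groups did not overlap for 5 members with CKO lower (Aif1, Cd14, P2ry13, Spi1 and Cx3cr1), where 17.3% of genes were lower without overlap, and for 2 with CKO higher (Itgam and Selplg), where 13.1% were. C1qa, C1qc, Cx3cr1, Trem2, Cd14, Ly86 and Spi1 lay above WT over all 7 arrays and below it here, and Fcgr3 the reverse.

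Other genes of microglia, from a list apart from the 33, lay for the most part above WT by small amounts over the 7 arrays, as did 58.9% of all genes. Of 35 tested, 31 lay above and 4 below, with a median of 0.044 against 0.014 for all genes, and 0 passed the adjusted p of 0.05 with limma; 4 had an unadjusted p under 0.05, all higher in CKO, where 4.17% of all genes were. Ikzf1, a transcription factor of the blood lineage, was at 7.62, 7.72, 7.79 and 7.58 in CKO and 7.49, 7.49 and 7.52 in WT, without overlap (difference 0.18, SE 0.056, adjusted p 0.711 with limma). Cd37, a leukocyte tetraspanin, differed by 0.14 (SE 0.049) and also did not overlap, where 5.39% of all genes were higher without overlap. Olfml3, a secreted protein gene of microglia that meningeal and vascular cells may also express, differed by 0.45 (SE 0.173), with CKO 43 at 9.69 among the WT arrays (9.49 to 9.95) and the other 3 CKO arrays at 10.31 to 10.34. On average the 35 genes were at 0.065, 0.056, 0.010 and -0.024 on CKO 1, 4, 34 and 43 and at -0.044, 0.0096 and -0.072 on WT 6, 27 and 38. CKO 1 and CKO 4 were the highest arrays of the list, and they are also those on which 72.4% and 66.7% of all genes lay above their mean. Within the 4 arrays of similar identifier, 21 of the 35 lay above WT and 14 below, with a median of 0.012 against -0.0056 for all genes, of which 53.6% lay below. Over the 7 arrays the median was 0.022 without WT 38 (12 below), 0.023 without CKO 1 (6 below) and 0.076 without WT 27 (2 below). These recounts were chosen after seeing the data.

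Signals from other cells to microglia were tested in 11 genes, of which 5 lay below WT and 6 above (median 0.024), 0 passed the adjusted p of 0.05 with limma and 1 had an unadjusted p under 0.05. That was Tgfb2, a transforming growth factor, with a difference of 0.21 (SE 0.074). Cd200 and Cd47, genes of surface proteins that restrain microglia, differed by -0.18 (SE 0.081) and -0.071 (SE 0.035). All 3 Cd47 values of WT, 11.51 to 11.53, were above all 4 of CKO, 11.42 to 11.49, where 2.99% of all genes were lower without overlap. Of 16 genes that microglia raise on activation or phagocytosis, 9 lay above WT and 7 below (median 0.031). Lpl, the lipoprotein lipase gene, which cortical neurons also express, had the smallest p, with a difference of -0.55 (SE 0.076, adjusted p 0.134 with limma). It was also lower without overlap. Axl, a receptor for dying cells, differed by 0.20 (SE 0.063) and Cst7, a cystatin, by 0.091 (SE 0.037). Both were higher without overlap, as were 5.39% of all genes. Cst7 lay near the filter at 6.84, at 6.93 to 6.98 in CKO and 6.84 to 6.92 in WT. Of 7 complement genes outside C1q, 4 lay above WT and 3 below (median 0.0051). Serping1, the C1 inhibitor gene, differed by 0.096 (SE 0.052) and was also higher without overlap. No gene of these 3 lists passed the adjusted p of 0.05 with limma; at an unadjusted p under 0.05, the activation list had 1 gene lower and 2 higher, the signal list 1 higher and the complement list 0, where 2.61% of all genes were lower and 4.17% higher.

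Markers of other cells that whole neocortex can hold were set beside the members. All 8 border macrophage markers tested (of 11) lay above WT, where 58.9% of all genes did, with a median of 0.091; they averaged -0.019 to 0.10 in CKO and -0.078 to -0.014 in WT, and Dab2, an endocytic adaptor, had the smallest p (difference 0.17, SE 0.072). Of 12 lymphocyte markers 6 were tested and 6 lay above WT, with array averages of -0.032 to 0.15 in CKO and -0.15 to 0.010 in WT. Nkg7, of cytotoxic cells, and Cd4 differed by 0.20 (SE 0.063) and 0.19 (SE 0.063). Their groups did not overlap, where 5.39% of genes were higher without overlap. Both lay near the filter at 6.84: Nkg7 at 7.03 to 7.21 in CKO and 6.79 to 7.00 in WT, Cd4 at 6.94 to 7.22 and 6.87 to 6.93. Of 12 monocyte and granulocyte markers 4 were tested, at -0.032 to 0.085 in CKO and -0.064 to 0.0037 in WT. The 12 endothelial and mural markers averaged -0.052 to 0.11 in CKO and -0.082 to 0.021 in WT. The 6 red blood cell genes tested of 10 averaged -0.062 to 0.28 in CKO and -0.42 to 0.089 in WT, with WT 38 far below the rest. The 5 antigen presentation and interferon genes tested of 14 all lay above WT, with B2m, the light chain of MHC class I, at a difference of 0.25 (SE 0.090). Cd74, 1 of the 5, lay at the filter, at 6.83 to 6.95 in CKO and 6.79 to 6.88 in WT. A gene so placed can pass the filter through its CKO values, which favours a place above WT. None of these genes passed an adjusted p of 0.05 with limma, and at an unadjusted p under 0.05 there were 1 border macrophage, 2 lymphocyte and 1 antigen presentation gene. Of all genes, 6.79% had such a p, 4.17% higher in CKO. Within the 4 arrays of similar identifier, 7 of the 8 border macrophage markers lay above WT (median 0.036), 4 of the 6 lymphocyte markers (0.053), 4 of the 5 antigen presentation and interferon genes (0.048) and 5 of the 6 red blood cell genes (0.068), and of all genes 46.4%; the first 3 lists had 0, 0 and 1 gene at an unadjusted p under 0.05 there.

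Of 8 neocortical neuron markers 6 were tested, 4 of them above WT and 2 below (median 0.053, 0.016 without CKO 4, 0.082 without CKO 34 and 0.092 without WT 27), and 0 passed the adjusted p of 0.05 with limma; 2 had an unadjusted p under 0.05, both higher in CKO. Bcl11b, a transcription factor of deep-layer projection neurons, was at 11.98 to 12.04 in CKO and at 11.80, 11.87 and 11.90 on WT 6, 27 and 38, without overlap (difference 0.15, SE 0.040, adjusted p 0.695 with limma). Tbr1 differed by 0.14 (SE 0.057), also without overlap, with WT 27 just under the lowest CKO array. Of all genes, 5.39% were higher without overlap. Slc17a7, a vesicular glutamate transporter gene, differed by -0.12 (SE 0.106), with overlapping groups. The 6 markers averaged -0.020 to 0.091 in CKO and -0.11 to 0.062 in WT, and within the 4 arrays of similar identifier 3 lay above WT and 3 below. The part of all these cell types in the values of the members was not tested.

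**Figure D4:**
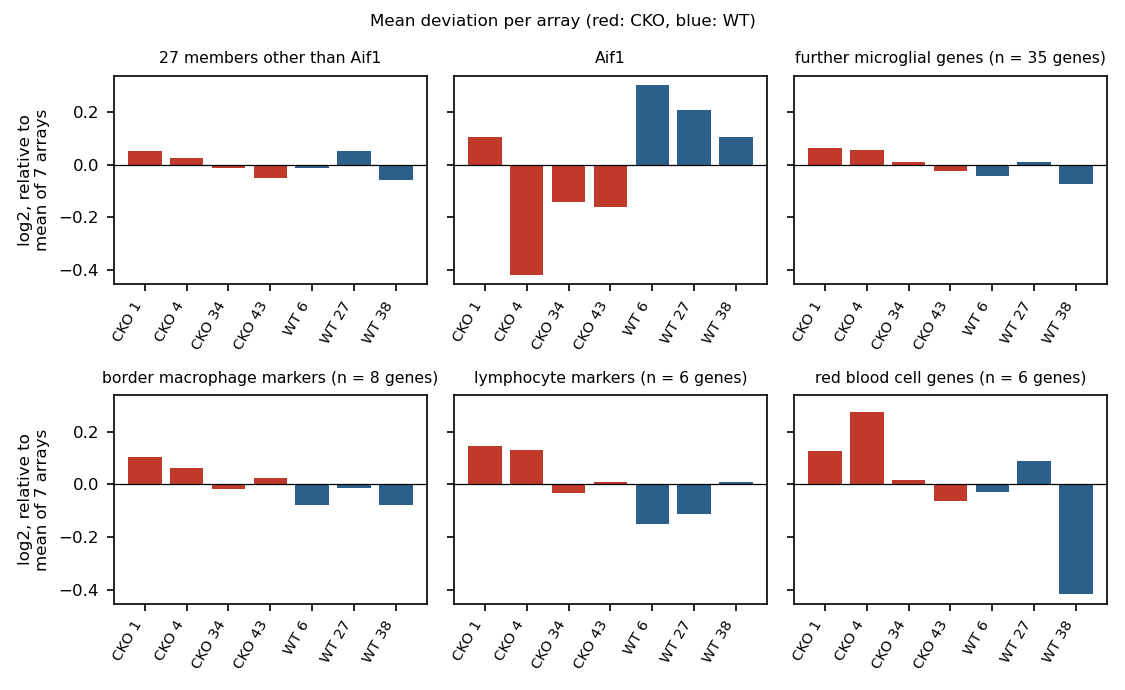
Mean deviation per array from the mean of the 7 arrays, in log2 units, for the 27 members other than Aif1, for Aif1, and for 4 lists of other genes; CKO arrays are red and WT arrays blue. The 27 members stay within 0.059 of 0, Aif1 reaches -0.42 on CKO 4, and red blood cell genes reach -0.42 on WT 38.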

How the data were processed

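Per the submitters' processing notes, the authors used RMA and Affymetrix Expression Console; the deposited values are log2 signals per probe set. No source used here gives a version or a genome build. RMA brings the arrays to nearly 1 distribution (median 8.23 on each), so a shift of all genes cannot be seen. Input was 0.2 µg and the RNA integrity number 10 for every sample, per the labels.

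Of 35468 probe sets, 21786 had 1 gene symbol, 1621 several and 12061 none in the platform annotation; only the first were named. The 3 probe sets that list Itgam beside a ribosomal protein gene were left out. Each gene was read from its brightest probe set, and genes with a mean below the 25th percentile were not tested, which left 16144. The 7 arrays were fitted together in limma 3.58.1 (lmFit and eBayes, CKO against WT, 5 residual and 3.28 prior degrees of freedom) in R 4.3.3, with Benjamini-Hochberg adjustment over all genes; the fit was tested on simulated data. Figures were drawn with matplotlib 3.10.9. The number of arrays limits the precision.

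The members and the other gene lists were chosen with earlier results of these data known, so no list was tested as a whole. By rule, values of every array were given for Aif1, the 8 members with the smallest p, the C1q genes, Csf1r, Cx3cr1, P2ry12 and Tmem119, and up to 3 genes of each other list were named by smallest p; values of Mrc1, Cd53 and single arrays of other members were picked after they were seen. Promoters were matched to RefSeq by symbol for 24 of 33 members. Alternatives covered the filter, probe set averaging, array scaling, the variance model, array weights, identifier groups and each array left out.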

Additional observations from a re-analysis of the deposited data

Results flagged for a closer look

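Among the CKO arrays, Cd53 was at 7.55 on CKO 34 and between 7.41 and 7.43 on the other 3, a gap of 0.8293 of the range of the 4, just past Dixon's 95% critical value for 4 samples. It was 1 of 36 such groups checked, and chance alone gives about 1 in 20.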

How the results depend on the processing

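No paired analysis was run, because the labels name no pairs of CKO and WT samples. No member passed an adjusted p of 0.05 with limma under any alternative run. The Aif1 difference was negative under all of them (-0.45 to -0.27), apart from the filter at the 50th percentile, which leaves Aif1 out; its adjusted p ran from 0.363 to 1.000 and its unadjusted p missed 0.05 without WT 6 and with the 3 identifier groups as a fixed block (0.115). The differences of 13 members kept their sign under every alternative run for them, and those of 20 changed sign at least once. Turned values were at most 0.12 in size, and the causes were not tested. The 13 include the dim Mrc1, Ptprc and Cd163. Dim members were refitted only with each array left out, so their signs with identifier groups, array weights or array scaling were not tested.

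With 3 identifier groups as a fixed block, which gives the same differences as the 4 arrays alone, the median of the members was -0.042 and the signs turned for C1qa (-0.023), C1qc (-0.020), Cx3cr1 (-0.016), Trem2 (-0.10), Fcgr3 (0.12), Cd14 (-0.097), Ly86 (-0.045) and Spi1 (-0.047). With 2 identifier groups as a block, which joins WT 6 to the 4 arrays, they turned for C1qa (-0.031), Fcer1g (-0.032), Trem2 (-0.057), Fcgr3 (0.077), Cd14 (-0.041), Ly86 (-0.11) and Spi1 (-0.0033). A random block turned Ly86 (-0.011) and Spi1 (-0.0032). Array weights turned C1qa (-0.0021), Fcer1g (-0.0063), Cd14 (-0.011), Ly86 (-0.089) and Spi1 (-0.0058), and array scaling turned Spi1 (-0.00047).

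Leaving out each array in turn gave ranges that crossed 0 for Irf8 (-0.023 to 0.0040), Gpr34 (-0.013 to 0.085), Fcer1g (-0.028 to 0.069), Ly86 (-0.10 to 0.084), Ctss (-0.073 to 0.021), Spi1 (-0.043 to 0.034), Laptm5 (-0.078 to 0.041), Trem2 (-0.0039 to 0.11), Cd14 (-0.015 to 0.087), Lyz2 (-0.084 to 0.097), P2ry12 (-0.089 to 0.00061), Cd84 (-0.020 to 0.013), Cd53 (-0.17 to 0.018), Cd68 (-0.013 to 0.11), P2ry13 (-0.030 to 0.0024), Csf1r (-0.064 to 0.032), Fcgr3 (-0.13 to 0.050) and C1qa (-0.027 to 0.055).

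Members at an unadjusted p under 0.05 numbered 0 to 1 in each direction with an array left out, and 0 lower with the fixed block of 3 or the filter at the 50th percentile. Members without overlap numbered 1 to 3 higher and 0 to 3 lower with an array left out, 0 higher with the stricter filter, and 2 higher and 5 lower in the 4 arrays alone. The median pairwise correlation ran from 0.24 to 0.43 with an array left out, a check chosen after seeing the data. Genes past the threshold among all tested numbered 4, against 0 with the fixed block of 3 and 1 to 6 with an array left out.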
